A study of Mus musculus with 2 samples.

Results

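Cyclic nucleotide signalling rests on enzymes that make the messengers and enzymes that destroy them, and these genes were compared between cultured mouse oligodendrocytes and astrocytes. The genes were chosen by name, as all gene probes of the array whose listed gene name begins with Adcy, Gucy, or Pde followed by a digit. The rule took 90 probes for 42 genes, of 27670 gene names in all, and used no measured value. Of these 42, 15 are cyclases, which stand for synthesis, and 21 are catalytic phosphodiesterases, which stand for breakdown. The other 6 carry the name without making or breaking a cyclic nucleotide: the peptide Adcyap1 (PACAP), its receptor Adcyap1r1, the scaffold Pde4dip (myomegalin) and the small subunits Pde6d, Pde6g and Pde6h. A pair of enzymes that the array lists under older names lies outside the rule, Sacy (now Adcy10) and E430028B21Rik (now Pde12). Of the pair, Pde12 carries the name without breaking a cyclic nucleotide. The receptors Npr1 and Npr2, themselves guanylyl cyclases, lie outside the rule as well and were not counted with synthesis.

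The RNA came from primary glia of C57BL/6J mice, and the series sought mRNAs enriched in oligodendrocytes. Oligodendrocytes had been detached by shaking from mixed glial cultures; astrocytes were the cells still on the dish, trypsinised after further time in serum medium and after removal of microglia, so the groups differ in time in culture and harvest as well as cell type. Both cell types were hybridised together on each of 2 Agilent 2-colour arrays, the array of replicate 1 carrying oligodendrocyte RNA in the red dye (Cy5) and astrocyte RNA in the green (Cy3), and that of replicate 4 the reverse. The series text speaks of independent samples of each cell type, but the labels do not state whether these replicates are separate cultures. The spread from array to array may therefore be technical. P-values cover no spread beyond that, and limma's eBayes estimates it partly from all genes together. They thus do not measure a gene's own spread alone. Other arrays of the series were not analysed here. All ratios below are log2 values of oligodendrocyte over astrocyte, as the mean of both arrays ± SD (n = 2). Levels are normalised log2 intensities of a gene's brightest probe, given for replicate 1 and then replicate 4, and can be compared between cell types but not between genes. They are built from the same ratios as the calls. Levels overlapped between the cell types in 0 of 21 called members and in 10 of 19 not called. A lack of overlap therefore adds no separate support to a call, and its share over all genes was not counted. Calls required an adjusted p under 0.05, by Benjamini-Hochberg over all genes tested.

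Adenylyl cyclases are membrane enzymes that turn ATP into cyclic AMP when G proteins, and for some of them calcium, tell them to. Soluble guanylyl cyclase is a dimer of an alpha and a beta subunit that makes cyclic GMP when it binds nitric oxide. Phosphodiesterases split either messenger or both, and so set how long and how far a signal lasts; protein kinase A, Epac exchange factors and cyclic nucleotide-gated channels read it. Raised cyclic AMP is known to promote oligodendrocyte maturation and to change the shape of cultured astrocytes.

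The probes are 60 bases long. The probes of Gucy1b3, Pde4dip and Adcyap1r1 are shown because averaging all probes of each gene moved its fold by over 1.5 times. These were the 3 called genes that moved so far. Probes of other called genes differed too, as given with each. The probes shown are written 5′ to 3′ in the order from the 3′-most probe, with mm7 coordinates as the array lists them. The 3 Gucy1b3 probes (now Gucy1b1, minus strand) lie at chr3:82137107-82137166, chr3:82137962-82138021 and chr3:82139211-82139270, and their ratios were 1.99, 1.41 and 0.73.
Gucy1b3 probe 1: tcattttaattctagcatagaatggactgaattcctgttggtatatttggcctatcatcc
Gucy1b3 probe 2: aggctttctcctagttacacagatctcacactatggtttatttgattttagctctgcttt
Gucy1b3 probe 3: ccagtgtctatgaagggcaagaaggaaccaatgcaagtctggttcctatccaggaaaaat

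The 3 Pde4dip probes shown here (minus strand) lie at chr3:97561124-97561183, chr3:97584457-97584516 and chr3:97610610-97610669, and their ratios were 3.38, 0.41 and 0.45.
Pde4dip probe 1: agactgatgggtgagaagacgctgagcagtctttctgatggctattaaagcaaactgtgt
Pde4dip probe 2: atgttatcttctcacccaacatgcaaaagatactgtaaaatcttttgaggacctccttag
Pde4dip probe 3: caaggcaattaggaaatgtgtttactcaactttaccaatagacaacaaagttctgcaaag

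The Adcyap1r1 probes (plus strand) lie at chr6:55464205-55464264 and chr6:55461547-55461606, and their ratios were -1.58 and -0.14.
Adcyap1r1 probe 1: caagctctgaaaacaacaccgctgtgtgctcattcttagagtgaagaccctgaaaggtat
Adcyap1r1 probe 2: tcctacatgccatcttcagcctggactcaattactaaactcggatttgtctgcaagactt

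The Adcy3 probes (plus strand) lie at chr12:4131146-4131678, a listed span longer than the probe, and chr12:4131113-4131172. They are shown because they share 27 bases, in capitals, and so are not independent readings; their ratios were 0.53 and 0.52. No other member probe shared a run of at least 20 bases with another probe of its gene, and 0 of the 90 shared one with a probe of another gene name.
Adcy3 probe 1: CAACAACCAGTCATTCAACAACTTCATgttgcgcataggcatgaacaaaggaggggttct
Adcy3 probe 2: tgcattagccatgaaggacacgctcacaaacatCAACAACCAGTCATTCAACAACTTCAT

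The enzymes on both sides of the balance split between the cell types. Of the 40 member genes tested, 12 were called higher in oligodendrocytes, 9 were called higher in astrocytes and 19 were not called. Over all 21896 genes tested, 18.5% were called higher in oligodendrocytes and 22.6% higher in astrocytes, 41.2% in either direction; the members' 21 calls were 52.5% of those tested. At least 2-fold on both arrays, a count without a test, were 6 members in the oligodendrocyte direction (background 5.1%) and 4 in the astrocyte direction (background 7.34%). The median ratio of the members was 0.035 and that of all genes -0.0040, while the median size of the ratio, whatever its sign, was 0.44 for the members and 0.26 for all genes. Set side by side, 5 synthesis genes were called higher in oligodendrocytes and 2 in astrocytes, of 14 tested (median ratio 0.0074), and 6 breakdown genes were called higher in oligodendrocytes and 5 in astrocytes, of 20 tested (median 0.049).

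**Figure D1:**
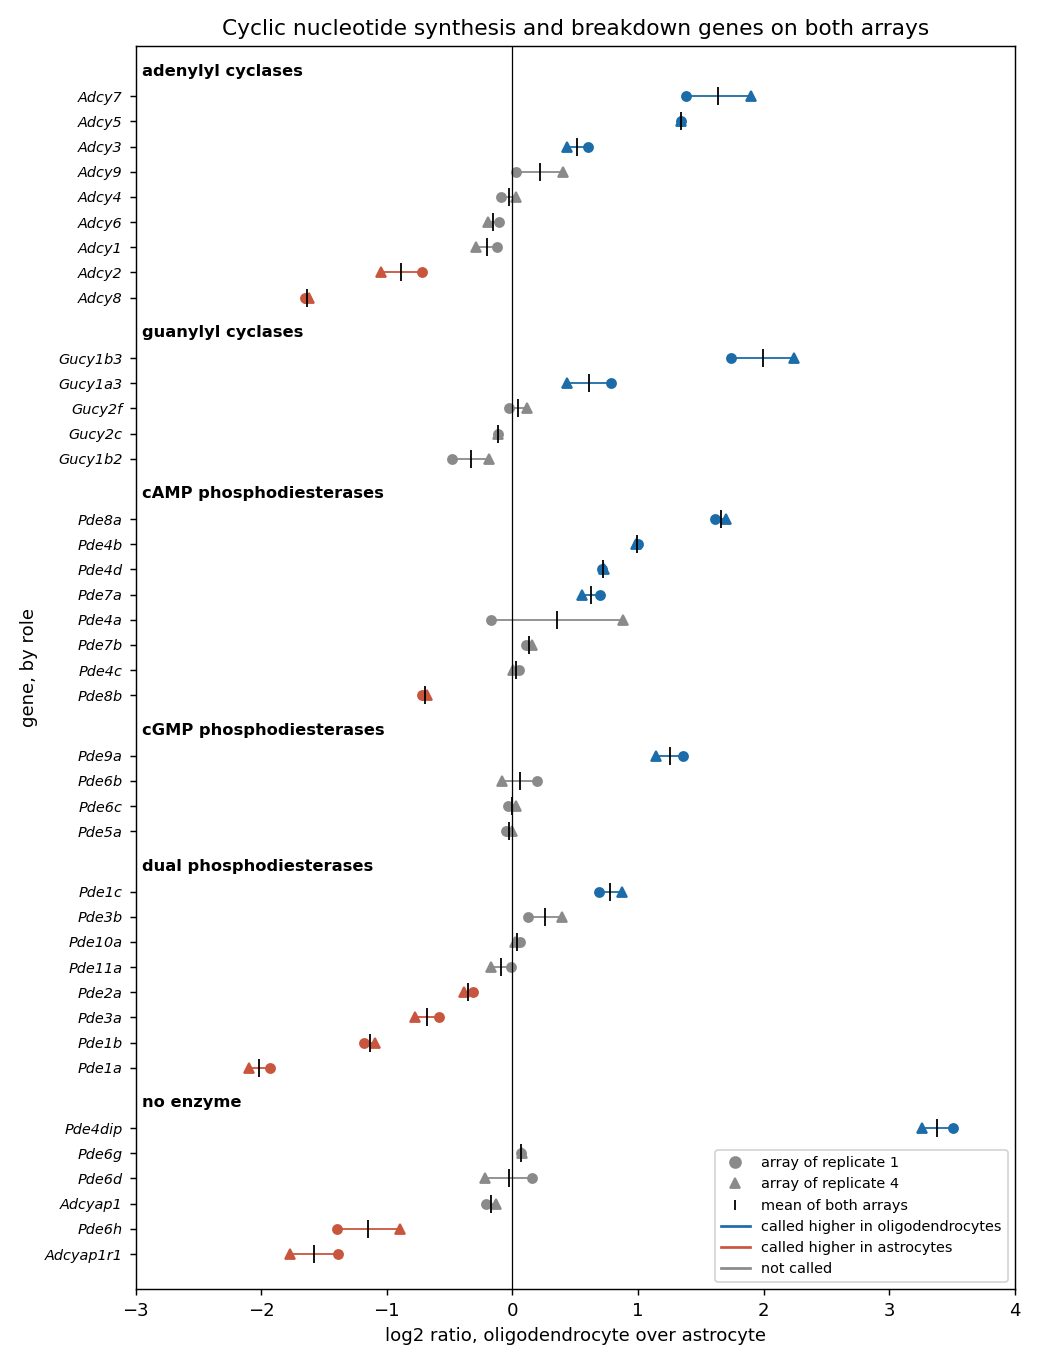
Log2 ratios, oligodendrocyte over astrocyte (horizontal axis), of the 40 member genes tested, grouped by role; circles are the array of replicate 1, triangles that of replicate 4 and bars their mean, with colour for the call. Called genes lie on both sides of 0 among adenylyl cyclases, cAMP phosphodiesterases and dual phosphodiesterases, and the points of Pde4a fall on opposite sides of 0.

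The 2 RNAs carried the defining markers of their labels: 10 of 10 oligodendrocyte markers were called higher in oligodendrocytes and 10 of 10 astrocyte markers higher in astrocytes (largest Gfap, -4.05), with 7 of 8 precursor markers higher in oligodendrocytes (largest Gpr17, 3.79). Markers of other cells moved with both groups. Microglial markers were called higher in oligodendrocytes for 11 of 12 (largest Trem2, 2.63), with summed levels of 181992 to 223040 against 57122 to 60084 (linear intensity). Of 9 neuronal markers tested, 7 were called higher in oligodendrocytes and 1 in astrocytes (largest Elavl3, 3.03; summed levels 20189 to 23939 against 5359 to 5546). Ependymal markers were called higher in astrocytes for 9 of 9 (largest Ak7, -3.67), at 143663 to 166141 against 12572 to 18949 in oligodendrocytes. Fibroblast and smooth muscle markers split, 5 to 3 of 10 (largest Col1a1, 2.69), with summed levels of 101234 to 101866 in oligodendrocytes and 134694 to 185562 in astrocytes. Col1a1, Col1a2, Col3a1, Lum and Pdgfra were the oligodendrocyte calls, and Acta2, Tagln and Cnn1 the astrocyte calls. Pdgfra (0.51) is also counted among the precursor markers. Endothelial and pericyte markers gave 1 oligodendrocyte and 3 astrocyte calls of 9 (largest Kcnj8, -1.88), with summed levels of 3617 to 3738 against 3913 to 4071. Tubb3, Spag6 and Abcc9 were not tested, and Kcnj8 was well above background on 1 of 2 arrays in oligodendrocytes; no other marker tested was dim in either cell type. The part of these cells in the ratios of the member genes below was not tested, and fewer cells of a type and less RNA per cell cannot be told apart in such bulk samples.

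Among the 9 adenylyl cyclases, Adcy7, Adcy5 and Adcy3 were higher in oligodendrocytes, and Adcy8 and Adcy2 higher in astrocytes. Adcy7, a cyclase that G protein beta-gamma subunits stimulate and that is prominent in blood and immune cells, read 11.74 and 12.06 in oligodendrocytes and 10.36 and 10.16 in astrocytes. The ratio was 1.64 ± 0.37, a 3.12-fold difference (limma, adjusted p = 1.13e-05), and a second, dimmer probe gave 1.11. Oligodendrocyte levels were the higher on both arrays and did not overlap with those of astrocytes, although the ratio of 1.38 on replicate 1 was smaller than that of 1.90 on replicate 4. Adcy5, a calcium-inhibited cyclase, read 9.01 and 8.97 in oligodendrocytes and 7.66 and 7.62 in astrocytes. Its ratio was 1.35 ± 0.00061 (2.54-fold; limma, adjusted p = 1.08e-05), almost the same on both arrays, and its second probe gave 1.21. Adcy3, a cyclase of olfactory neurons that G proteins stimulate, had a smaller ratio of 0.52 ± 0.12 (limma, adjusted p = 0.0068). The ratio turned to -0.17 when the arrays were centred on spike-in controls, and was not called after median centring (limma, adjusted p = 0.619).

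Adcy8, which calcium and calmodulin switch on, stood on the astrocyte side. It read 7.05 and 7.26 in oligodendrocytes and 8.70 and 8.88 in astrocytes, a ratio of -1.63 ± 0.021 or 3.1-fold (limma, adjusted p = 2.88e-06). Adcy2, a beta-gamma-stimulated cyclase, had a ratio of -0.88 ± 0.23 (1.85-fold; limma, adjusted p = 0.00038), with -0.79 from its second probe; median centring ended this call (limma, adjusted p = 0.136). Adcy1, Adcy4, Adcy6 and Adcy9 were not called, with ratios between -0.20 and 0.22, and the levels of Adcy4 overlapped between the cell types. Relatives by regulation thus lay apart: calcium-stimulated Adcy8 was called while Adcy1 was not, and calcium-inhibited Adcy5 was called while Adcy6, at -0.15, was not; the differences between these genes were not tested.

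The guanylyl cyclases held the largest ratio of any cyclase. Gucy1b3 encodes the beta-1 subunit of the nitric oxide receptor and read 9.12 and 9.32 in oligodendrocytes against 7.37 and 7.08 in astrocytes. This is a ratio of 1.99 ± 0.36, or 3.98-fold (limma, adjusted p = 2.75e-06); all 3 of its probes printed above were called in the same direction, and their mean was 1.38. Gucy1a3 (now Gucy1a1) encodes the alpha-1 partner, and was higher in oligodendrocytes by less. It read 7.89 and 7.47 in oligodendrocytes and 7.10 and 7.04 in astrocytes, a ratio of 0.61 ± 0.25 (limma, adjusted p = 0.0043). Of its 3 probes tested, 2 were called. The 3′-most gave 0.31 without a call, with an astrocyte signal not well above background. Levels of both subunits did not overlap between the cell types, but the alpha subunit's ratio turned to -0.077 with spike-in centring and lost its call after median centring (limma, adjusted p = 0.376).

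The other guanylyl cyclases taken by the rule gave no call. Gucy1b2, the beta-2 subunit, had a ratio of -0.33 ± 0.21 (limma, adjusted p = 0.0662). It passed the threshold under 6 of 12 other settings (limma, adjusted p = 6.91e-05 with spike-in centring and 0.0106 to 0.0414 with the rest). Of the 6, the scanner software's log ratio and the authors' value table hold the same values. Gucy2c, the gut receptor of guanylin peptides, was at -0.11 and retinal Gucy2f at 0.044, both within 0.2 of 0 on each array. Retinal Gucy2e was not tested, since neither of its probes was well above background on both arrays in any cell type.

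Gucy1b1 and Gucy1a1 are neighbouring protein-coding genes on mouse chromosome 3, per RefSeq. The Gucy1b1 promoter is shown for the cyclase with the largest ratio, and the Pde1a promoter for the phosphodiesterase with the largest. A gene can have several promoter windows, and the one shown is its first that holds the half-site marked below. The presence of the half-site in these windows is therefore no result. Each covers 250 bases before to 50 after the RefSeq start (GRCm38.p6), chr3:82074662-82074961 and chr2:80038853-80039152, both on the minus strand, with capitals for the cyclic AMP response half-site TGACG on either strand.
Gucy1b1 promoter: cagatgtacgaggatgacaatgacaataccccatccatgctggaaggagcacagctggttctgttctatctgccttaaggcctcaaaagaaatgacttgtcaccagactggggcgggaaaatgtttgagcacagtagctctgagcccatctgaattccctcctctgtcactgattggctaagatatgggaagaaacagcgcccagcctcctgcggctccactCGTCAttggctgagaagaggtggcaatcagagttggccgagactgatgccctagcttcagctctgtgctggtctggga
Pde1a promoter: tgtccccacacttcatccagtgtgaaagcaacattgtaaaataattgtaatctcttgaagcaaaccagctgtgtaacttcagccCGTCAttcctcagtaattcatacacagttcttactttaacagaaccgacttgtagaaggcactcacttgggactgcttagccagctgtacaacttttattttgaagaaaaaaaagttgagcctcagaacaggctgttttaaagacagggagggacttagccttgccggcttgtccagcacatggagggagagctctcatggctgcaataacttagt

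Promoter windows were found for 32 of the 42 member genes, 59 in all. The half-site TGACG, searched on both strands, stood in 13 of them (22.03%) and in 20.81% of the 32851 promoters of the same length in the table; among windows of called members it stood in 8 of 40. The full palindrome TGACGTCA, which contains the half-site, stood in 0 member windows and in 1.79% of all. The half-site was therefore about as common in member windows as in all windows. The palindrome is too rare for 59 windows to tell. Windows of a gene can overlap, as those of Adcyap1 do, so they are not separate readings.

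Among the cyclic AMP phosphodiesterases, the median ratio was 0.49; 4 of 8 tested genes were called higher in oligodendrocytes and 1 in astrocytes. Pde8a, a high-affinity enzyme that the drug IBMX does not block, led them: it read 9.30 and 9.36 in oligodendrocytes and 7.68 and 7.65 in astrocytes, a ratio of 1.66 ± 0.062 or 3.16-fold (limma, adjusted p = 2.72e-06). Its paralogue Pde8b went the other way, at 7.49 and 7.69 in oligodendrocytes and 8.21 and 8.37 in astrocytes, a ratio of -0.70 ± 0.026 (limma, adjusted p = 0.00099). The paralogues were thus called in opposite directions, each without overlap between the cell types, though the Pde8b call was lost after median centring (limma, adjusted p = 0.316). Another Pde8b probe lies on the opposite strand to the gene, so it does not read its mRNA as annotated, and was at 0.01.

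The PDE4 enzymes, the targets of the drug rolipram, were called for 2 of 4 genes. Pde4b read 11.80 and 11.65 in oligodendrocytes and 10.80 and 10.66 in astrocytes, a ratio of 0.99 ± 0.0077 (1.99-fold; limma, adjusted p = 9.02e-05). Of its 4 probes, 3 gave 0.88 to 0.99, and the other, named by the cDNA AK171700 and 34391 bases upstream of the 3′-most probe, gave 0.19. Pde4d read 7.80 and 7.48 in oligodendrocytes and 7.08 and 6.75 in astrocytes, a ratio of 0.72 ± 0.0078 (limma, adjusted p = 0.000781), and its probes ran from 0.72 at the 3′ end to -0.03 at the probe farthest from it. Both ratios stayed positive after median centring, at 0.88 and 0.81, without a call (limma, adjusted p = 0.157 and 0.212), and that of Pde4d fell to 0.035 with spike-in centring. Pde4a was the member with the widest disagreement between the arrays: its ratio was -0.17 on replicate 1 and 0.88 on replicate 4, its levels overlapped and it was not called. Pde4c was at 0.028, also without a call.

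The PDE7 enzymes are a further cyclic AMP-specific pair. Pde7a read 10.15 and 10.00 in oligodendrocytes and 9.46 and 9.44 in astrocytes, a ratio of 0.62 ± 0.099 (limma, adjusted p = 0.0022). Its levels did not overlap, but a second probe gave 0.17 without a call, spike-in centring turned the ratio to -0.063, and median centring ended the call (limma, adjusted p = 0.606). Pde7b was not well above background in astrocytes on either array, and its ratio of 0.13 gave no call. The log ratio of the scanner software gave 0.71, with a call (limma, adjusted p = 0.0021). Spike-in centring gave -0.56, a call toward astrocytes (limma, adjusted p = 0.00155), so the settings differed in direction.

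Among the cyclic GMP phosphodiesterases only Pde9a was called, 1 of 4 tested. Pde9a, the enzyme with the highest affinity for cyclic GMP, read 10.73 and 10.72 in oligodendrocytes and 9.37 and 9.58 in astrocytes. Its ratio was 1.25 ± 0.15, or 2.38-fold (limma, adjusted p = 2.39e-05), with both oligodendrocyte levels above both astrocyte levels. Pde5a, the target of sildenafil, was at -0.025 and near background, being well above it on 1 of 2 arrays in oligodendrocytes. The photoreceptor enzymes Pde6b and Pde6c had ratios of 0.058 and -0.0018, with overlapping levels, and Pde6a was not tested because its probe was not well above background in either cell type.

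The dual-specificity phosphodiesterases, which split both messengers, held 4 astrocyte calls and 1 oligodendrocyte call of 8 tested, with a median ratio of -0.22. Their largest ratios belonged to PDE1 enzymes, which calcium and calmodulin activate. Pde1a read 9.20 and 9.23 in oligodendrocytes and 11.12 and 11.33 in astrocytes, a ratio of -2.01 ± 0.12 or 4.04-fold (limma, adjusted p = 8.7e-07). All 4 of its probes lay between -2.14 and -1.56, across 33779 bases of the gene; every probe placed the gene on the astrocyte side. Pde1b read 10.68 and 10.74 in oligodendrocytes and 11.86 and 11.83 in astrocytes, a ratio of -1.14 ± 0.060 or 2.20-fold (limma, adjusted p = 3.71e-05). Pde1c ran against its paralogues: it read 7.56 and 7.41 in oligodendrocytes and 6.87 and 6.54 in astrocytes, a ratio of 0.78 ± 0.13 (limma, adjusted p = 0.000573). Its 5 probes tested ran from 0.13 to 0.78, and 3 of them were called, all toward oligodendrocytes. The brightest is the one farthest from the 3′-most probe, which gave the 0.13. The 3 PDE1 genes were thus all called and in both directions. The Pde1c ratio was 1.69 as the scanner software's log ratio, and 0.094 without a call after spike-in centring.

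**Figure D2:**
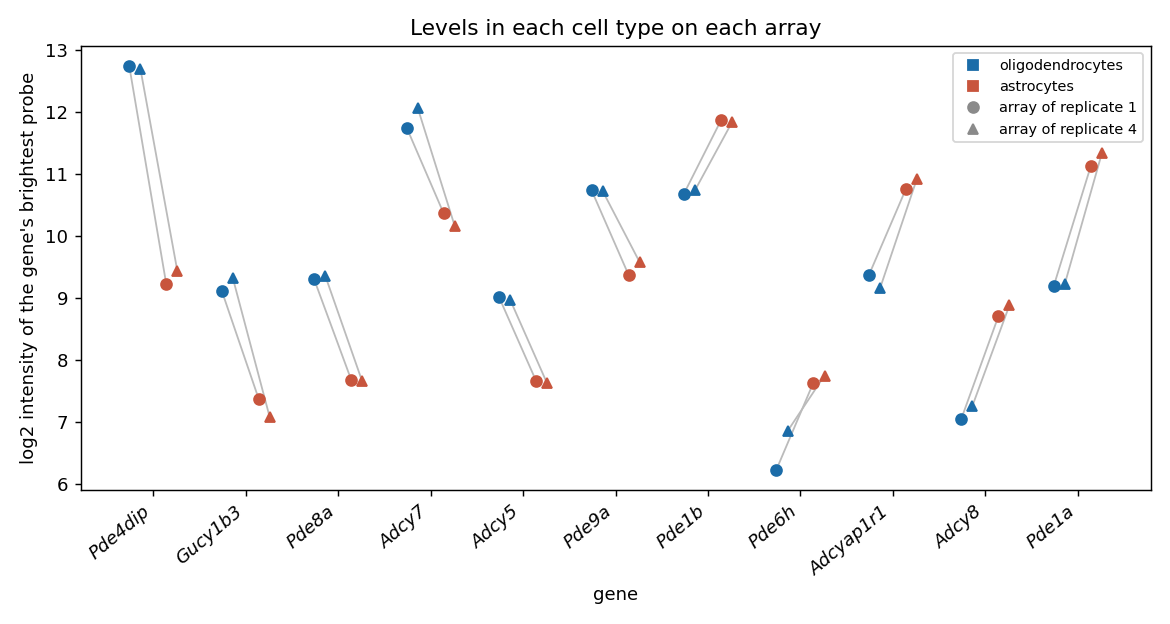
Log2 intensity (vertical axis) of the 11 called members with a ratio of at least 1 in size, in oligodendrocytes (blue) and astrocytes (red) on the arrays of replicate 1 (circles) and replicate 4 (triangles); grey lines join the cell types of an array. As in all 21 called members, both levels of one cell type lie above both of the other in each gene. The genes run from 12.73 and 12.69 against 9.22 and 9.44 for Pde4dip to 9.20 and 9.23 against 11.12 and 11.33 for Pde1a.

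Pde3a, an enzyme that cyclic GMP inhibits, read 7.17 and 7.21 in oligodendrocytes and 7.76 and 7.98 in astrocytes, a ratio of -0.68 ± 0.13 (limma, adjusted p = 0.0015). Only 1 of its 3 probes was well above background, and that probe is named by a cDNA. The probe named by the RefSeq mRNA, 2396 bases upstream, was not well above background in either cell type. Pde2a, an enzyme that cyclic GMP stimulates, had the smallest called ratio: it read 7.54 and 7.55 in oligodendrocytes and 7.85 and 7.94 in astrocytes, or -0.35 ± 0.054 (limma, adjusted p = 0.0409). These levels did not overlap for either gene. The Pde2a call rests on its brightest probe, since the other gave 0.045 and the mean of both gave -0.15 without a call (limma, adjusted p = 0.281), and it was lost without background subtraction (limma, adjusted p = 0.0505). After median centring neither Pde2a, Pde3a nor Pde1c was called (limma, adjusted p = 0.891, 0.378 and 0.153). Pde3b, Pde10a and Pde11a were not called at any probe tested, with ratios between -0.09 and 0.26 for the brightest; a Pde3b probe on the opposite strand was not above background.

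Of the 6 members that are no enzymes, Pde4dip had the largest ratio of all members. Pde4dip, a scaffold of the centrosome and Golgi that binds PDE4, read 12.73 and 12.69 in oligodendrocytes and 9.22 and 9.44 in astrocytes. The brightest probe gave 3.38 ± 0.18, or 10.4-fold (limma, adjusted p = 7.99e-08), and is the 3′-most of the gene. Its 5 other probes that entered gave 0.20 to 0.88, of which 4 were called in the same direction, and the mean of all 6 was 0.96. The second probe printed above carries the same accession as the first and lies 23333 bases upstream, and gave 0.41, with an astrocyte signal not well above background. The 10.4-fold value was thus read by 1 of 6 probes; probes were not placed on transcripts here.

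PACAP and its receptor feed the cyclases from outside the cell. Adcyap1r1, a receptor coupled to the stimulatory G protein, read 9.37 and 9.15 in oligodendrocytes and 10.75 and 10.92 in astrocytes, a ratio of -1.58 ± 0.27 or 2.98-fold (limma, adjusted p = 8.42e-06). Its levels did not overlap, but the second probe printed above gave -0.14 without a call and the mean of both was -0.86. Adcyap1, the ligand, was at -0.17 ± 0.058 and not called (limma, adjusted p = 0.313). Of the small phosphodiesterase subunits, Pde6h, an inhibitory subunit of the cone enzyme, read 6.24 and 6.85 in oligodendrocytes and 7.64 and 7.75 in astrocytes, or -1.15 ± 0.36 (2.22-fold; limma, adjusted p = 0.000127), and its other probe gave -0.86. Its astrocyte levels were the higher on both arrays, while the catalytic genes Pde6b and Pde6c were not called. The rod subunit Pde6g (0.072) and the prenyl-binding Pde6d (-0.028) were not called and their levels overlapped.

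**Figure D3:**
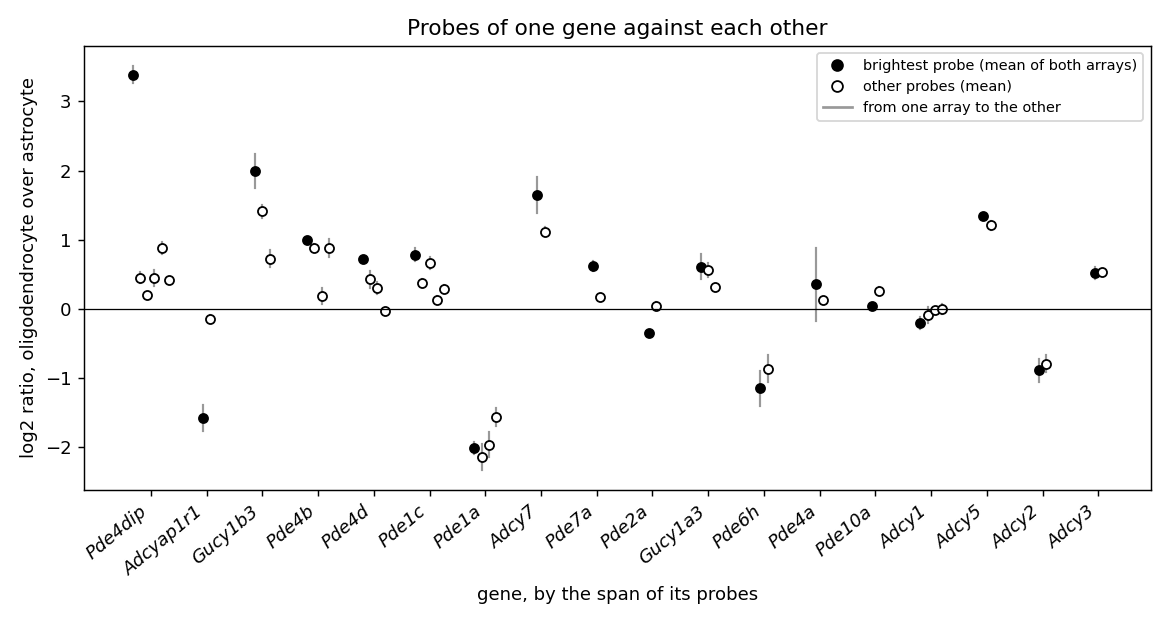
Log2 ratios, oligodendrocyte over astrocyte (vertical axis), of each probe of the 18 member genes with several sense probes tested, ordered by the span of their probes; filled points are the brightest probe, open points the others from brighter to dimmer, and grey lines run from one array to the other. The span is widest for Pde4dip (0.20 to 3.38) and narrowest for Adcy3 (0.52 to 0.53).

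Counted by probe, 27 of the 76 member probes tested were called higher in oligodendrocytes and 14 in astrocytes, with 40.2% of all 32565 probes called in either direction. In 16 of the 18 genes with several sense probes tested, all probes lay on the same side of 0; the exceptions were Pde2a and Pde4d, each through a probe within 0.05 of 0. The brightest probe, which represents the gene, also had the largest ratio in size in 15 of the 18, and the 3′-most probe in 14. Across the 76 probes, which share arrays and in part genes, the ratios of the 2 arrays had a Pearson r of 0.966, and 65 had the same sign on both. Of the pair listed under older names, Sacy was not well above background, and the 2 Pde12 probes tested gave 0.18 and 0.12 without a call.

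**Figure D4:**
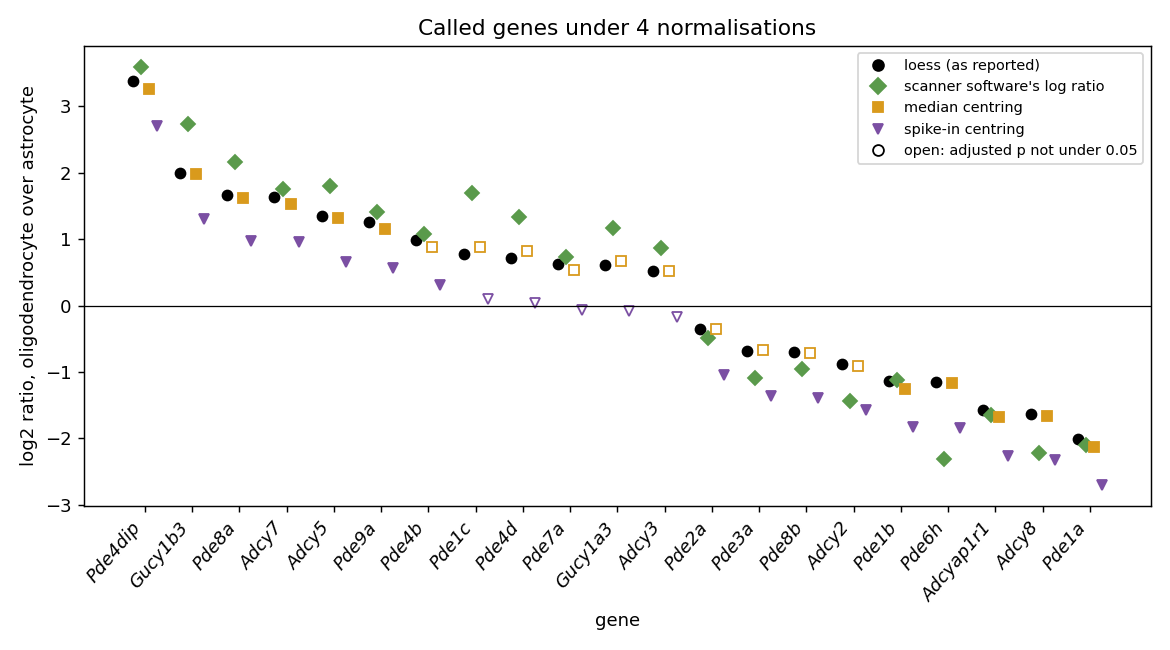
Log2 ratios, oligodendrocyte over astrocyte (vertical axis), of the 21 called members under the loess normalisation reported, the scanner software's log ratio, median centring and spike-in centring; open symbols have an adjusted p not under 0.05. Spike-in centring lowers every ratio by 0.69 and takes Adcy3, Gucy1a3 and Pde7a below 0; median centring leaves 11 of the 21 called.

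The directions depend on where equal expression is set. Loess takes the bulk of genes as unchanged, whereas centring on spike-in controls moved every ratio by 0.69 toward astrocytes. Whether the controls were added in equal amounts per mass of RNA to both cell types is not given in the sources used here, so which centring is nearer to true levels was not tested. The median of all genes was then -0.69, the share of oligodendrocyte calls among all called genes was 6.87% in place of 45.1%, and 7 members were called higher in oligodendrocytes and 27 higher in astrocytes. Pde4dip, Gucy1b3, Pde8a, Adcy7, Adcy5, Pde9a and Pde4b stayed higher in oligodendrocytes with a call, at 2.70, 1.31, 0.97, 0.95, 0.66, 0.57 and 0.31. The 9 members called higher in astrocytes could only move further from 0 under this shift, so their kept calls there are no test. The scanner software's log ratio, gave larger values for 4 called genes by over 1.5 times in fold, Pde6h (-2.32), Gucy1b3 (2.73), Pde1c (1.69) and Pde4d (1.33), all in the same direction.

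The other genes of the pathway gave 37 calls among 74 genes tested, beside the background of 41.2% given above: 47.4% of effectors, 66.7% of protein kinase A inhibitors and anchors, 44.4% of inputs to cyclic GMP, 40% of stimulatory receptors and G proteins, 50% of transcription response genes and 1 of 2 exporters. Most of these shares lie near the background, and the values below describe single genes. Of 19 effectors tested, 6 were called higher in oligodendrocytes and 3 in astrocytes (median 0.042). Among the largest were the cyclic GMP-dependent kinase Prkg2 (1.55) and the pacemaker channel Hcn2 (1.29) in oligodendrocytes, and the Epac exchange factors Rapgef3 (-1.64) and Rapgef4 (-0.79) and the regulatory subunit Prkar1b (-0.86) in astrocytes. Among 15 protein kinase A inhibitors and anchors, 4 were higher in oligodendrocytes, led by the inhibitor Pkib (1.68) and the anchors Akap1 (0.70) and Akap10 (0.61), and 6 in astrocytes, led by the inhibitor Pkig (-1.38), Akap2 (now Pakap, -1.0) and Pkia (-0.59); the median was -0.14. The inhibitor family was thus called in both directions, as the PDE1 and PDE8 families were.

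Of the 9 genes listed as inputs to cyclic GMP, 1 was higher in oligodendrocytes, the natriuretic peptide receptor Npr2 (0.53). Npr2 is itself a guanylyl cyclase, outside the naming rule and the synthesis count. In astrocytes 3 were higher, the nitric oxide synthases Nos3 (-1.26) and Nos1 (-0.93) and the peptide Nppc (-1.13). The median was 0.033. The nitric oxide synthases called and the called subunits of the nitric oxide receptor thus lay on opposite sides. Of 15 stimulatory receptors and G proteins, with a median of 0.051, 4 were higher in oligodendrocytes, among them the prostaglandin receptors Ptger4 (0.76) and Ptger2 (0.73), and 2 in astrocytes, the beta-1 adrenergic receptor Adrb1 (-2.20) and the adenosine receptor Adora2b (-0.81). Of 14 genes of the cyclic AMP transcription response, 3 were higher in oligodendrocytes (Sik1 at 1.19, Per1 at 0.87 and Nr4a1 at 0.74) and 4 in astrocytes, led by Ppargc1a (-1.77), Bdnf (-0.80) and Crem (-0.64), with a median of -0.037. Of the 2 exporters tested, Abcc4 was higher in astrocytes (-0.42) and Abcc5 was not called.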

How the data were processed

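The deposited scanner files hold spot intensity in both channels, read with Agilent Feature Extraction 9.5.3.1 and not normalised by the authors, per the file headers; the deposited log10 ratios (Cy5 over Cy3) are background-subtracted and dye-normalised, per the same headers, and equal those of the authors' value table. Background was corrected with normexp (offset 50, which pulls dim ratios toward 0) in limma 3.58.1 (R 4.3.3), and ratios were loess-normalised within arrays, turned to oligodendrocyte over astrocyte and averaged per probe. A probe entered when at least 1 cell type read well above background on each array and no spot had an outlier mark (32565 of 41174; 0 saturated spots); 76.6% to 83.9% of gene spots per channel were above background, and the number of arrays limits the precision. A gene was its brightest entering probe. Limma (lmFit, eBayes) tested ratios against 0 with Benjamini-Hochberg adjustment over all genes. Each gene has 1 residual degree of freedom, so its standard error leans on a variance shared over all genes. It was 0.12 for Adcy5 (SD 0.00061) and 0.21 for Pde4a (SD 0.74). For the levels, average intensities were quantile-normalised between the arrays (Aquantile), which leaves the ratios unchanged. Of 43379 gene spots, 24913 were named by accession, 6857 by symbol and 3127 by older name (RefSeq, GRCm38.p6), and 8482 kept the file's name; members were taken by the file's name. Both arrays share a slide and scan, so no batch could be tested. The script was tested on simulated data. Members and lists were chosen with earlier results of these data known; every member could be named, with levels for called genes of at least 2-fold and for smaller ones in roles with under 3 of these, and the 3 largest calls per list and direction. A few genes of these lists are not reported here by name.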

Additional observations from a re-analysis of the deposited data

How the results depend on the processing

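Counts moved by over 1.5 times under 3 settings. After median centring, 6 members were called higher in oligodendrocytes and 5 in astrocytes, with 18 member probes, 12 pathway list genes and 2928 of all genes called. Spike-in centring gave 7 and 27 members, 63 pathway list genes and 19440 of all genes, and reversed Adcy3 (-0.17), Gucy1a3 (-0.077) and Pde7a (-0.063); its shift was 0.687. Counting instead 2-fold on both arrays left 6 and 4 members. The cause was not tested, except that the shift and the 2-fold rule act by construction. Of the 21 called members, 11 kept direction and call after median centring and 16 after spike-in centring. All astrocyte calls are among the 16, since the shift could only enlarge them. Each other setting kept at least 20. These include an offset of 10, the scanner software's log ratio, scaling between arrays, filters on dim probes, marked spots and a trended prior. The dim-probe filters, marked spots and trended prior left the ratios of called members as they were, and 0 member probes were marked. Their kept calls therefore say little about the ratios. Alternatives for probe and pathway counts were added after the data were seen. Leaving out an array leaves no residual degrees of freedom, so it gave values without a test. Each ratio is already a paired difference within an array, so no further block was fitted. Signal near background limits Adcy4, Pde5a and Pde7b. Pde6h was well above background throughout, but read only 6.24 in oligodendrocytes on replicate 1. Its ratio of -1.15 was -2.32 as the scanner software's log ratio, so its size is uncertain.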
